A study of Mus musculus with 18 samples.

Results

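The constitutive proteasome genes were taken as all genes whose annotated symbol starts with Psma to Psmg and a digit, leaving out the interferon-inducible Psmb8, Psmb9, Psmb10, Psme1 and Psme2. This gave 45 genes of the 18193 with a probe set of a single symbol, and each was represented by the probe set with the highest mean level over all arrays. Of the 45, 43 encode subunits, regulators or assembly chaperones of the proteasome. The symbol also caught Psmc3ip, a factor of meiotic recombination, and Psme3ip1, a protein that binds the activator PSME3, which are kept in the counts and named where they matter. Total RNA of mouse immune cells had been measured on 18 Affymetrix arrays at 0 h, 1 h and 4 h after treatment with a cell wall extract, with 6 arrays at each time. The design text calls the animals KO mice, and the title names TLR2, NOD2, RICK and IL-10, but no sample label gives a genotype, strain, age, sex or cell type, nor the source of the extract, so whether a deletion differs between the times is not known here. The labels do not tell whether the arrays of a time stand for different animals, so each p-value reflects only how far these samples scatter, part of which may be technical. The titles carry array codes in the ranges 44-54, 32-37 and 12-22, each with 2 arrays of every time, and the labels do not say what the ranges stand for.

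The proteasome is the protease of the cytosol and nucleus that degrades ubiquitin-tagged proteins into peptides, some of which are presented on MHC class I. Its 20S core is a barrel of alpha rings, which gate the entrance, around beta rings, of which PSMB5, PSMB6 and PSMB7 carry the chymotrypsin-like, caspase-like and trypsin-like activities. A 19S cap, built of a base with ATPases and a lid that removes ubiquitin, feeds substrates into the core, and chaperones that are not part of the finished particle assemble both. In macrophages and other cells exposed to interferon, PSMB8, PSMB9 and PSMB10 take the places of PSMB5, PSMB6 and PSMB7 and form the immunoproteasome.

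Over the series, all 10 macrophage markers passed the filter on low signals, and 0 of 4 T cell markers did. Of the other markers with a probe set, 7 of 8 stromal, 5 of 8 neutrophil and 7 of 7 cell cycle markers passed. So did the pan-leukocyte marker Ptprc, 2 of 3 dendritic cell, 1 of 3 B cell and 1 of 2 NK cell markers, but not the 1 erythroid marker. Signals are deposited on a linear scale, and levels of different probe sets are not comparable, so values are set only against the same probe set. The median signal of an array was 74.5 to 87.3 at 4 h and 85.9 to 108 at 0 h and 1 h, and the median change of all 25804 probe sets tested was -0.22 on the log2 scale at 4 h against 0 h under the deposited scaling, -0.07 after quantile normalization and 0.04 after centring each array on its median. Changes are therefore read beside that shift. Whether less RNA per cell or fewer cells of a type lies behind a lower signal cannot be told apart in bulk samples.

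At 4 h against 0 h, 13 of the 44 constitutive proteasome genes tested rose and none fell, by limma with Benjamini-Hochberg adjusted p under 0.05. Of all probe sets tested, 9.93% rose, 23.1% fell and 33.1% changed in either direction. The median log2 change of the 44 genes was 0.13, beside -0.22 over all probe sets, and 31 of the 44 had a positive value. After quantile normalization the median was 0.04, beside -0.07 over all probe sets, with 28 of the 44 positive. That scaling shifted the 44 genes by a median of -0.11, while the median of all probe sets moved up. Most of the 44 genes had a higher mean level than most tested probe sets (above 93.6% of them for Psmb5, but above 7.6% for Psma8). The background of all probe sets was not matched to them in level. The rises were modest, from 1.25-fold for Psmc5, an ATPase of the base, to 1.97-fold for Psmd10. In 9 of the 44 genes all 6 arrays at 4 h lay above all 6 at 0 h, as did 5.59% of all probe sets, while 11.3% of all probe sets and 0 of the 44 genes lay wholly below. The remaining gene, Psmb11, the thymus-specific beta subunit, averaged 15.7 ± 18 at 0 h, 15.6 ± 17.3 at 1 h and 21.1 ± 15.3 at 4 h (SD, n = 6 each), too dim to be tested.

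The size of the count depended on the scaling of the arrays. After quantile normalization 6 of the 44 genes rose and none fell, beside 12.3% of all probe sets higher and 15% lower. The share of risen genes was thus close to that of all probe sets. The 6, all among the 13, were Psmd10, Psmd11, Psma6, Psme3, Psmd3 and Psmd7. After centring each array on its median all 13 passed among 21 risen genes, beside 16.3% of all probe sets higher and 10.4% lower, and with the code range as a block all 13 passed among 15 risen genes, beside 12.6% of all probe sets higher and 30.3% lower. Without replicate 4 of 0 h, 8 genes passed and the median was 0.08. None of the 13 changed sign after quantile normalization, while 11 of the other 31 did, among them Psma7, Psmb3, Psmb4, Psmc4, Psmd2, Psmd4 and Psmd6, which went below 0. Within the ranges of array codes, with 2 arrays a time, 3 genes rose in codes 44-54, beside 5.26% of all probe sets higher and 9.4% lower. In codes 32-37 none changed, with 3 at an unadjusted limma p under 0.05, beside 2.48% higher and 2.11% lower, and in codes 12-22 3 rose, beside 5.98% higher and 9.53% lower. The mean at 4 h was above that at 0 h in all 3 ranges for 24 of the 44 genes and below it in all 3 for 10, beside 18% and 45.2% of all probe sets.

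**Figure D1:**
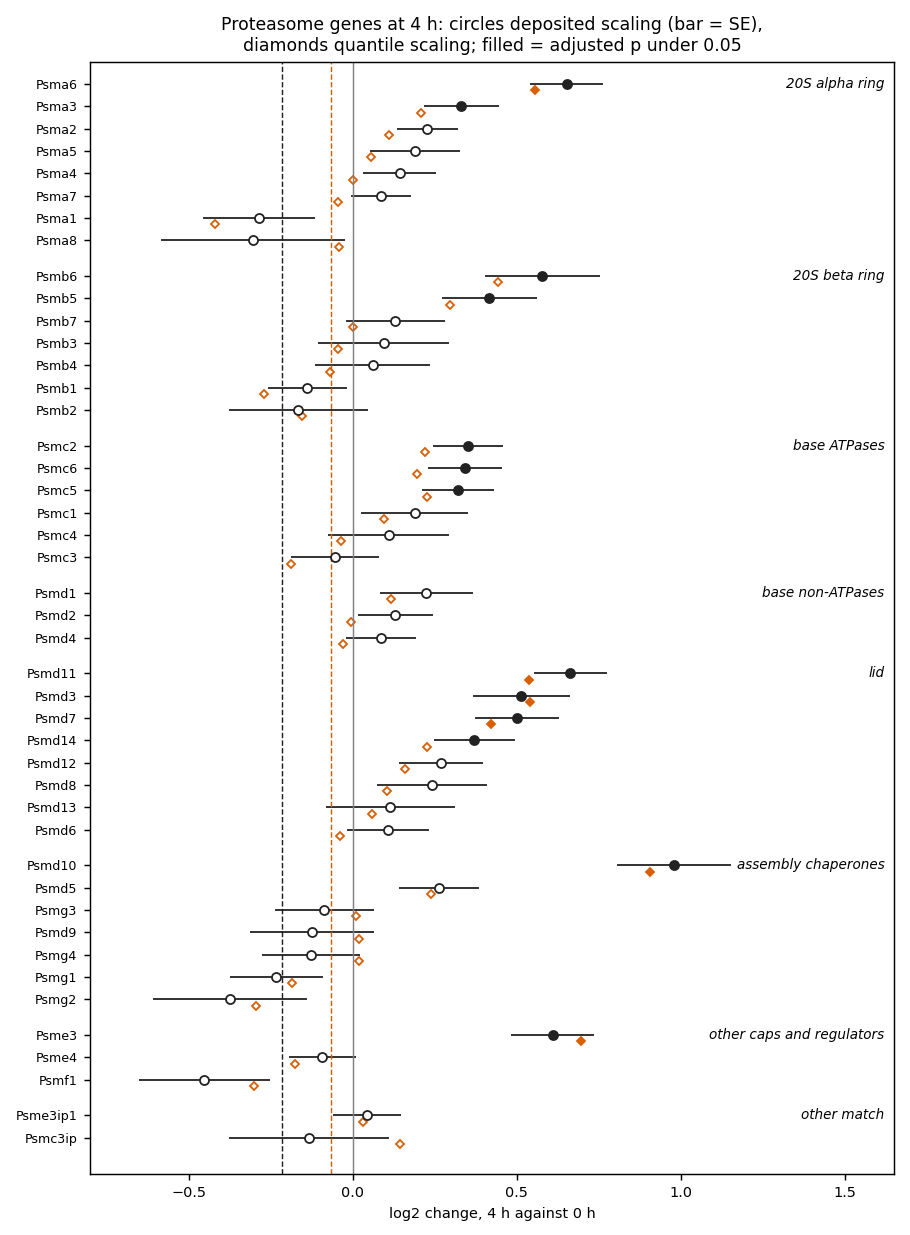
Log2 change at 4 h against 0 h of the 44 constitutive proteasome genes tested, grouped by role and ordered by change; circles with SE bars give the deposited scaling, diamonds quantile normalization, and filled symbols passed the threshold. Dashed lines mark the median of all 25804 probe sets under each scaling (-0.22 in black, -0.07 in orange). All 8 lid genes shown lie right of 0 under the deposited scaling, and the lid subunit Sem1, outside the symbol rule, is not shown.

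Psmd10, which encodes gankyrin, a chaperone of the 19S base, had the largest rise. Its signal ranged from 1373 to 2166 at 0 h (median 1709), from 1211 to 2357 at 1 h (median 1806) and from 2935 to 3716 at 4 h (median 3388). The 4 h arrays did not overlap with either earlier time, and the change at 4 h was 0.98 ± 0.17 (log2, SE; 1.97-fold, limma adjusted p = 0.000323). It was 1.03 within codes 44-54, 0.65 within codes 32-37 and 1.25 within codes 12-22. The other 6 chaperones did not pass at 4 h against 0 h. Psmd5, also a base chaperone, had a change of 0.26 (limma adjusted p = 0.105), which passed after median centring (0.52, adjusted p = 0.00992), and Psmd9, the third base chaperone tested, -0.12 (adjusted p = 0.656). The chaperones of the 20S core, Psmg1, Psmg2, Psmg3 and Psmg4, had values of -0.23, -0.37, -0.09 and -0.13, none past the threshold. After quantile normalization the values of Psmd9, Psmg3 and Psmg4 were above 0.

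In the lid, which strips ubiquitin chains, 4 of the 8 genes matched by the symbol rose at 4 h. All 8 had a positive value, with a median of 0.32. Sem1, also a lid subunit, has a symbol outside the rule and is counted below among the partners. Its mean signal was lower at 4 h (11633 ± 1546) than at 0 h (13390 ± 2047; SD, n = 6 each), and it did not pass under the deposited scaling. The scaffold subunit Psmd11 had signals of 6206 to 7818 at 0 h (median 6768), 6238 to 8089 at 1 h (median 6594) and 9431 to 12936 at 4 h (median 10924). The 4 h arrays again lay above all earlier ones, with a change of 0.66 ± 0.11 (limma adjusted p = 0.000182). Psmd3, another scaffold subunit, rose by 0.51 ± 0.15 (adjusted p = 0.012), with 1168 to 1642 at 4 h against 828 to 1041 at 0 h. Psmd7, the inactive partner of the deubiquitinase, rose by 0.50 ± 0.13 (adjusted p = 0.00593), with 2690 to 3714 at 4 h against 1785 to 2426 at 0 h. The deubiquitinase itself, Psmd14, rose by 0.37 ± 0.12 (adjusted p = 0.0282). Psmd6, Psmd8, Psmd12 and Psmd13 had values of 0.11, 0.24, 0.27 and 0.11 and did not pass. Each value is that of the representative probe set alone. Another tested probe set of Psmd13 fell at 4 h, further ones of Psmd11 rose, and the other one tested of Psmd7 did not pass. After quantile normalization 7 of the 8 lid genes stayed positive, Psmd6 being the exception at -0.04.

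In the base, 3 of the 6 ATPase genes rose: Psmc2 by 0.35 ± 0.11 (limma adjusted p = 0.0174), Psmc6 by 0.34 ± 0.11 (adjusted p = 0.0258) and Psmc5 by 0.32 ± 0.11 (adjusted p = 0.0317). None of the 3 passed after quantile normalization, with values of 0.22, 0.20 and 0.23. Psmc1, Psmc4 and Psmc3 had values of 0.19, 0.11 and -0.05. The non-ATPase subunits, the scaffolds Psmd1 and Psmd2 and the ubiquitin receptor Psmd4, had 0.22, 0.13 and 0.09, and none of the 3 passed.

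Of the 8 alpha ring genes tested, 2 rose. Psma6 had signals of 9919 to 12252 at 0 h (median 11703), 9605 to 12549 at 1 h (median 11582) and 15489 to 21644 at 4 h (median 17591). Every 4 h array lay above every earlier array, and the change was 0.65 ± 0.11 (limma adjusted p = 0.000242), with 0.72, 0.52 and 0.72 within codes 44-54, 32-37 and 12-22. Psma3 rose by 0.33 ± 0.11 (adjusted p = 0.0324), which after quantile normalization was 0.21 (adjusted p = 0.115). Psma2, Psma4, Psma5 and Psma7 had values between 0.09 and 0.23. Psma1 had -0.29 (adjusted p = 0.213) and fell in the fit with the code range as a block (adjusted p = 0.0135). Psma8, the testis form of an alpha subunit, was dim, with means of 74.2 at 0 h, 79.6 at 1 h and 62.1 at 4 h, and a value of -0.30.

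Of the 7 beta ring genes tested, 2 rose, both of them catalytic. Psmb6 had signals of 4324 to 7816 at 0 h (median 5558), 4198 to 6622 at 1 h (median 5489) and 6936 to 11349 at 4 h (median 7931). The 4 h and 0 h arrays overlapped, but within each range of array codes both 4 h arrays lay above both 0 h arrays. The change was 0.58 ± 0.18 (limma adjusted p = 0.0173), with 0.65, 0.58 and 0.51 within codes 44-54, 32-37 and 12-22, and after quantile normalization 0.44 (adjusted p = 0.0583). Psmb5 had 3082 to 4808 at 0 h (median 4170), 3235 to 4670 at 1 h (median 4159) and 4546 to 6502 at 4 h (median 5233). Here too the groups overlapped while within each range both 4 h arrays lay above both 0 h arrays. Its change was 0.42 ± 0.14 (limma adjusted p = 0.0343), and after quantile normalization 0.30 (adjusted p = 0.117). The third catalytic gene, Psmb7, had 7882 to 11837 at 0 h (median 11137), 7103 to 11204 at 1 h (median 9548) and 9483 to 13408 at 4 h (median 11070), overlapping at all times, with a change of 0.13 ± 0.15 (adjusted p = 0.546). The non-catalytic Psmb1, Psmb2, Psmb3 and Psmb4 had values of -0.14, -0.17, 0.09 and 0.06, none past the threshold.

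Among the other caps and regulators, Psme3, the nuclear activator PA28 gamma that opens the core without ubiquitin, rose by 0.61 ± 0.13 (limma adjusted p = 0.00134). Its signal was 488 to 751 at 0 h (median 683), 635 to 828 at 1 h (median 733) and 875 to 1214 at 4 h (median 965), and no 4 h array overlapped with an earlier one. The other tested probe set of Psme3 did not pass. Psme4, the activator PA200, had -0.09 (adjusted p = 0.521). Psmf1, the inhibitor PI31, had the lowest value of all 44 genes, -0.45 ± 0.20 (adjusted p = 0.0908). The 2 other matches of the symbol, Psmc3ip and Psme3ip1, had -0.13 and 0.04.

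**Figure D2:**
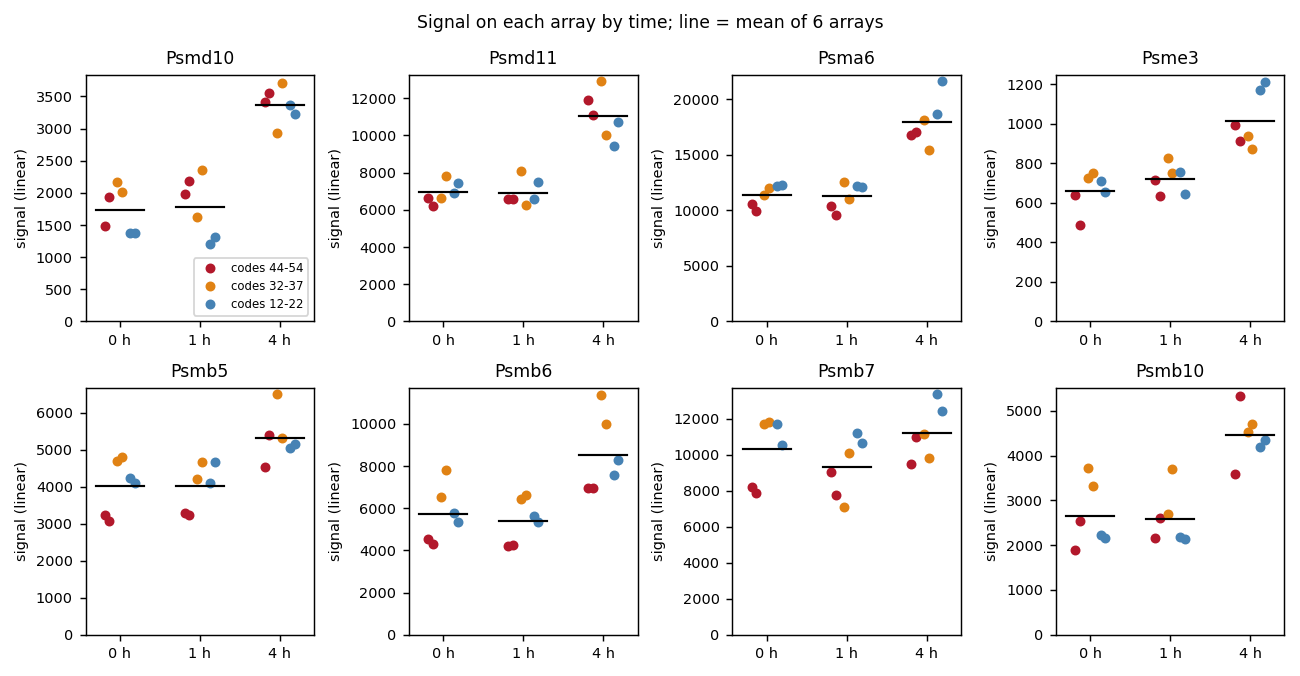
Signal (linear scale, from 0) of 7 constitutive genes and the inducible Psmb10 on each of the 18 arrays by time, coloured by range of array codes, with the mean of 6 arrays as a line. The 4 h points of Psmd10, Psmd11, Psma6 and Psme3 lie above all earlier points, those of Psmb5 and Psmb6 overlap with earlier ones of another code range, and Psmb7 overlaps throughout.

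At 1 h against 0 h none of the 44 genes changed by limma, and none had an unadjusted p under 0.05. Of all probe sets, 0.612% rose, 0.14% fell and 0.752% changed in either direction, so 0 of 44 is close to that background. After quantile normalization again none changed, beside 0.705% higher and 0.155% lower. The median change of the 44 genes was -0.06, beside -0.04 over all probe sets, and the values ran from -0.29 to 0.19. Psma6 and Psmb4, the 2 probe sets of highest mean level, had values of -0.01 ± 0.11 and -0.10 ± 0.17, and Psmb5, Psmb6 and Psmb7 had 0.01, -0.07 and -0.15.

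Between 1 h and 4 h, 14 of the 44 genes rose and none fell, beside 7.7% of all probe sets higher, 16.7% lower and 24.4% in either direction. This comparison shares the 4 h arrays with the one above, and 11 genes passed in both. Psma2, Psma7 and Psmd5 passed here and not at 4 h against 0 h, with 0.28, 0.26 and 0.36, calls lost in 6, 16 and 5 of 18 fits with an array left out, and Psmd3 and Psmd14 did not pass here, with 0.33 (limma adjusted p = 0.116) and 0.34 (adjusted p = 0.0539). The largest values were 0.95 for Psmd10, 0.67 for Psmd11, 0.66 for Psma6 and 0.65 for Psmb6. After quantile normalization 8 genes rose, beside 9.29% of all probe sets higher and 10.4% lower, and with the code range as a block 18 rose, beside 10.6% higher and 23.3% lower. After median centring 22 rose, beside 13.4% higher and 7.36% lower. Without replicate 1 of 1 h, or replicate 5 of 4 h, 9 genes rose. In 11 of the 44 genes all 4 h arrays lay above all 1 h arrays, as in 3.62% of all probe sets.

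Of the 4 inducible genes tested, 1 rose and none fell at 4 h against 0 h, beside 9.93% and 23.1% of all probe sets. After median centring 2 rose and none fell, beside 16.3% and 10.4%. With the code range as a block 2 rose and none fell, beside 12.6% and 30.3%. After quantile normalization 1 rose and none fell, beside 12.3% and 15%. Psmb10 rose by 0.78 ± 0.18 at 4 h against 0 h (limma adjusted p = 0.00257), with 1885 to 3730 at 0 h (median 2384), 2140 to 3697 at 1 h (median 2399) and 3592 to 5337 at 4 h (median 4437). Psmb8 had 0.25 (adjusted p = 0.279), Psmb9 0.07 (adjusted p = 0.799) and Psme1, a subunit of the PA28 cap, 0.28 (adjusted p = 0.0775). The log2 ratio of each inducible gene to its counterpart within an array was compared by a two-sided exact permutation test. The p-values were adjusted over 6 tests, and 6 against 6 arrays allow no p below 0.00216. A single scale factor for an array would leave such a ratio almost unchanged, but quantile normalization need not. It moved the change of Psmb6 from 0.58 to 0.44, and the ratios were not computed after it. Psmb10 to Psmb7 was 0.65 higher at 4 h than at 0 h (exact p = 0.00649, adjusted p = 0.039). Psmb9 to Psmb6 was lower at 4 h, with a difference of -0.51 (exact p = 0.0152, adjusted p = 0.0455). Psmb8 to Psmb5 had -0.17 (exact p = 0.0909, adjusted p = 0.182). With labels permuted only within a range of array codes, the first and second of these ratios had an adjusted p of 0.0556 each in the exact test, and with an array left out they lost their call in 6 and 9 of 12 tests. At 1 h the 3 differences were 0.13, -0.00 and -0.11, none past the threshold. A ratio shows that the genes of a pair changed unequally, not which of them moved.

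**Figure D3:**
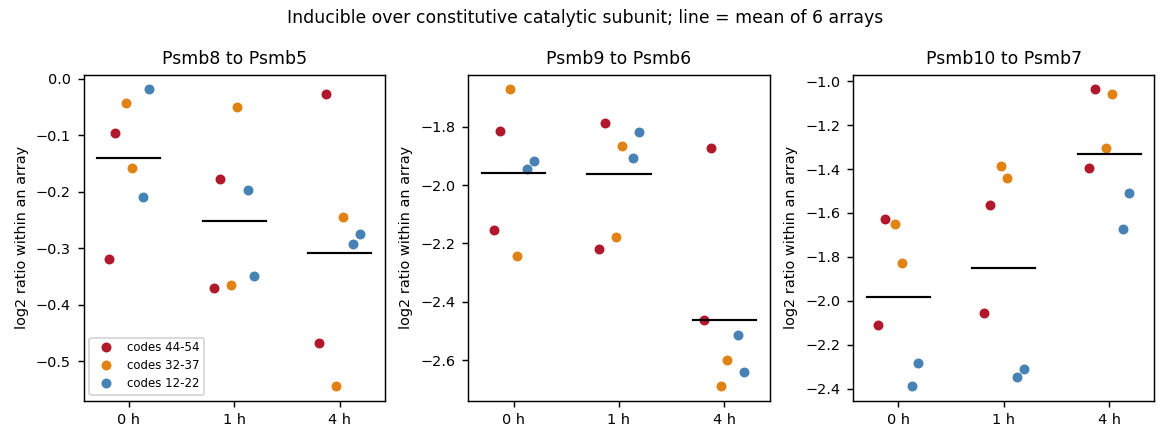
Log2 ratio within each array of an inducible catalytic gene to the constitutive gene whose place its product takes, by time and range of array codes, with the mean of 6 arrays as a line. The level of a ratio depends on the probe sets and is not a protein ratio; 5 of the 6 arrays at 4 h lie below all 0 h arrays for Psmb9 to Psmb6, and the 4 h mean is 0.65 above the 0 h mean for Psmb10 to Psmb7.

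Proteasome genes are known to be induced together by NRF1, encoded by Nfe2l1, through an antioxidant response element in their promoters. Promoter windows of 250 bases before to 50 after the start were taken from RefSeq (GRCm38.p6), where 37 of the 45 genes had one, and searched on both strands for TGAC, any 3 bases and GC, the core of that element. It was found in 6 of the 37 genes (16.2%), beside 14% of all genes in the table. It was in 3 of the 11 risen genes with a window (Psmb5, Psmb6 and Psmc6) and in 3 of the other 26 (Psmd9, Psmd12 and Psme4). The CCAAT box, bound by NF-Y, was in 15 of the 37 (40.5%), beside 41.1% of all genes, and in 6 of the 11 risen ones. An interferon response core, GAAA, any 2 bases and GAAA, was in 4 of the 37 (10.8%) and in 0 of the 11 risen genes, beside 3.99% of all genes. The windows of the risen catalytic genes and of Psmd10, the gene with the largest rise, are shown with the element (Psmb5 and Psmb6) or the CCAAT boxes (Psmd10) in capitals, 5′ to 3′ along the gene. A CCAAT box on the opposite strand reads ATTGG, and no match overlapped with one of another motif in these windows. A match is a description of the letters, not of binding.
Psmb5, chr14:54617946-54618245, minus strand: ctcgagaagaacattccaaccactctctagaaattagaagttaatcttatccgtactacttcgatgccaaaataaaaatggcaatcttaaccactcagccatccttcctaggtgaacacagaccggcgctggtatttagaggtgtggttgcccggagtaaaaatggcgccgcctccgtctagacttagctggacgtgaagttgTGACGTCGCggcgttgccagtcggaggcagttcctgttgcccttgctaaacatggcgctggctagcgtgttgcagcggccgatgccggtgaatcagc
Psmb6, chr11:70525107-70525406, plus strand: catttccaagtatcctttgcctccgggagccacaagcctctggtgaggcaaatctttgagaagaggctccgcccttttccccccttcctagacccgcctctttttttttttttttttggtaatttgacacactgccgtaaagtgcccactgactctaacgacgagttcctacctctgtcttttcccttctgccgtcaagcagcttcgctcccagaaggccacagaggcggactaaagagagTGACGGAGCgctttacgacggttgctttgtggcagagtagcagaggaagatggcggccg
Psmd10, chrX:140956662-140956961, minus strand: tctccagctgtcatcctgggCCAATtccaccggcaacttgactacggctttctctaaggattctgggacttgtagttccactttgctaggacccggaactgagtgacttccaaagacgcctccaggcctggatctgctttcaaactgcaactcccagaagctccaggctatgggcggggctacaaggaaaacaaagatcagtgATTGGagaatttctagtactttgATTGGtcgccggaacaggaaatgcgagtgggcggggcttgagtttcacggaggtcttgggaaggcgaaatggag
The element of Psmb5 starts 47 bases before the start site and that of Psmb6 9 bases before it. The boxes of Psmd10 start 230, 47 and 24 bases before it.

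Of a list of 30 partners of the proteasome, 21 had a probe set of a single symbol, all tested. At 4 h against 0 h 8 rose and 2 fell, beside 9.93% and 23.1% of all probe sets. After quantile normalization 6 rose and 4 fell, beside 12.3% and 15%, and after median centring 10 rose and none fell, beside 16.3% and 10.4%. Zfand5, whose product binds the proteasome and stimulates degradation, had the largest change, 1.61 ± 0.18 (limma adjusted p = 4.41e-06), with 3927 to 5651 at 0 h, 5451 to 11946 at 1 h and 11025 to 17350 at 4 h. Nfe2l2, the transcription factor NRF2 of the oxidative stress response, rose by 1.22 ± 0.18 (adjusted p = 7.40e-05), with 5400 to 8777 at 0 h, 6797 to 14838 at 1 h and 15908 to 19393 at 4 h. Nfe2l1 rose by 1.03 ± 0.17 (adjusted p = 0.000136), with 682 to 1299 at 0 h, 834 to 1227 at 1 h and 1517 to 2668 at 4 h. For all 3, every 4 h array lay above every 0 h array. Nploc4, a cofactor of the segregase VCP, rose by 0.66 ± 0.20 (adjusted p = 0.0183). Akirin2, which carries proteasomes into the nucleus, and the shuttle Ubqln2 fell by 0.44 and 0.42 (adjusted p = 0.0479 and 0.0315), with -0.19 and -0.17 after median centring (adjusted p = 0.526 and 0.419). Zfand2a had the lowest value of the 21, -0.57, and Uchl5 had a lower mean signal at 4 h (2190) than at 0 h (2974). Neither passed under the deposited scaling. Pomp, the chaperone that matures the core, had -0.13 (limma adjusted p = 0.344) and fell after quantile normalization, with -0.27 (adjusted p = 0.0387). At 1 h none of the 21 changed, although 2 had an unadjusted p under 0.05 and, with the code range as a block, Zfand5 and Nfe2l2 passed, with 0.63 (adjusted p = 0.0433) and 0.60 (adjusted p = 0.0479).

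**Figure D4:**
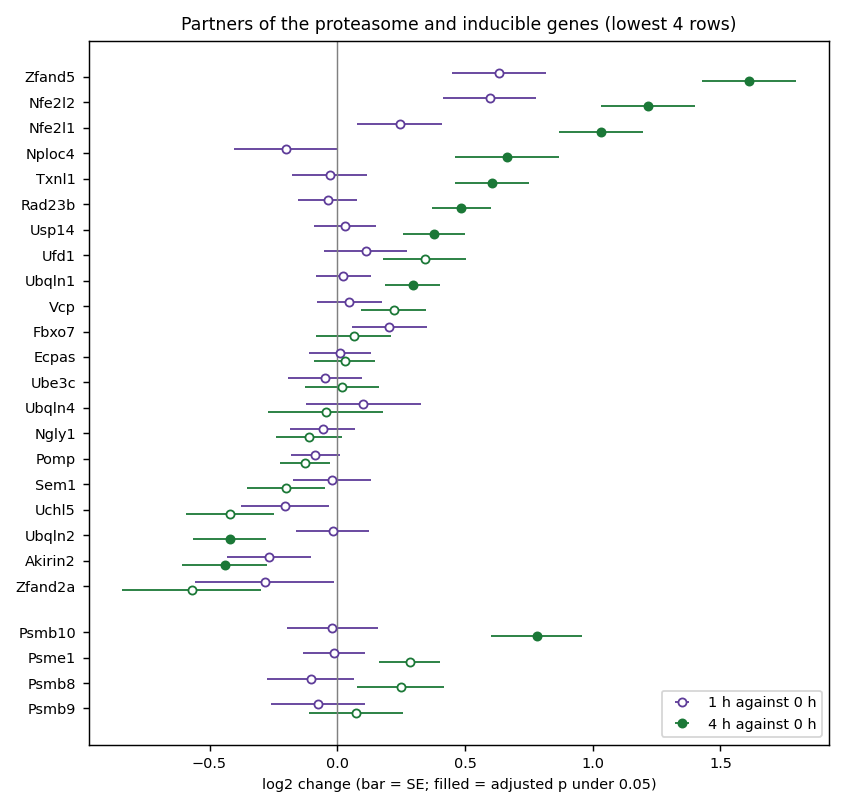
Log2 change (SE bars) at 1 h and at 4 h against 0 h of the 21 partners of the proteasome and, in the lowest 4 rows, of the inducible genes; filled symbols passed the threshold. Zfand5, Nfe2l2 and Nfe2l1 have the largest values at 4 h, 1.61, 1.22 and 1.03, and no symbol is filled at 1 h.

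The levels of the proteasome genes also differed between the ranges of array codes, with time in the fit. In codes 44-54 against 12-22, 12 of the 44 genes were lower and none higher, beside 8.66% of all probe sets lower, 10.5% higher and 19.1% in either direction. In codes 44-54 against 32-37, which share the 44-54 arrays, 12 were lower and none higher, beside 8.25% lower, 8.87% higher and 17.1% in either direction, and 6 genes were lower in both. In codes 32-37 against 12-22, 7 were higher and 1 lower, beside 9.65% higher, 8.12% lower and 17.8% in either direction. After centring each array on its median 21 genes were lower in codes 44-54 than in 12-22, beside 13.1% of all probe sets lower and 7.7% higher, and after quantile normalization 9 were, beside 10.6% lower and 9.11% higher, while without replicate 4 of 0 h 6 were. The beta ring held 5 of the 12 lower genes in each of the first 2 comparisons, of 7 tested.

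Psmb3, a non-catalytic beta subunit, had the largest difference between codes 44-54 and 12-22, with signals of 3953 to 5504 in codes 44-54 (median 4578) against 7025 to 7524 in codes 12-22 (median 7393). The ranges did not overlap, and the difference was -0.66 ± 0.12 (limma adjusted p = 0.0012). Psmg2, Psmc3ip and Psmd8 followed with -0.64, -0.54 and -0.51. Psmd13 had the largest difference between codes 44-54 and 32-37, with 1485 to 1907 (median 1710) against 2368 to 3660 (median 2611) and -0.69 ± 0.11 (adjusted p = 0.000338). Psmb6 differed by -0.64 ± 0.08 from codes 32-37 (adjusted p = 6.42e-05) and by -0.30 from codes 12-22 (adjusted p = 0.0179). Psmb5 differed by -0.43 and -0.29 in the same order (adjusted p = 0.00586 and 0.0459), and Psmb7 by -0.20 and -0.40 (adjusted p = 0.264 and 0.0241). Against codes 12-22 the call was lost with an array left out in 12 of 18 fits for Psmb5, 10 for Psmc3ip and 4 for Psmb7. In codes 32-37 against 12-22 the largest values were 0.45 for Psma1, 0.44 for Psmd13, 0.42 for Psmc1 and 0.41 for Psmd10, and Psmg2 was lower, with -0.56 (adjusted p = 0.035), the calls of Psmd10 and Psmg2 being lost in 12 and 6 of 18 fits with an array left out.

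Other cell markers moved with these ranges. The summed signal of 7 cell cycle markers was 22389 to 31300 in codes 44-54, 49253 to 64349 in codes 32-37 and 30923 to 58120 in codes 12-22, with 6 of the 7 lower in codes 44-54 than in each other range. That of 8 stromal markers, of which 7 were tested, was 14683 to 20581, 3705 to 7508 and 1097 to 1678 in the same order of ranges, and that of 8 neutrophil markers, of which 5 were tested, 337 to 938, 1194 to 2610 and 2415 to 4953. Their part in the difference of the proteasome genes was not tested. No stromal, neutrophil or cell cycle marker changed with time, while 2 of the 10 macrophage markers rose and 1 fell at 4 h against 0 h, and their summed signals overlapped between times. The response at 4 h itself was not shown to differ between ranges: in a moderated F test 0 of the 44 genes passed and 0 had an unadjusted p under 0.05, beside 0.837% of all probe sets passing.

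**Figure D5:**
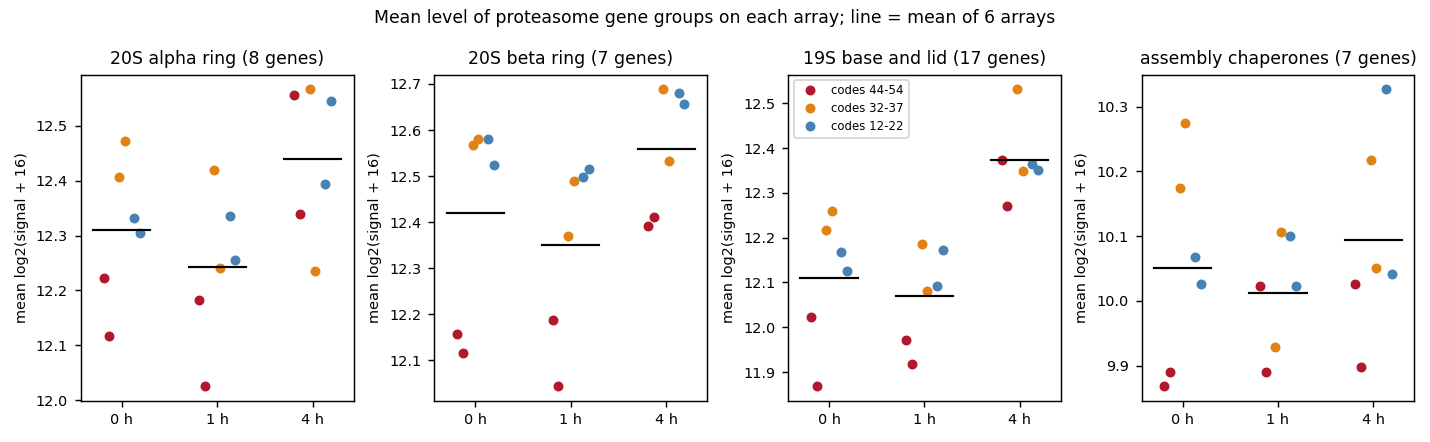
Mean log2(signal + 16) of the alpha ring (8 genes), beta ring (7), 19S base and lid (17) and assembly chaperones (7) on each array by time, coloured by range of array codes, with the mean of 6 arrays as a line. Under the deposited scaling shown, the 4 h arrays of the base and lid lie between 12.27 and 12.53, above all 0 h arrays (11.87 to 12.26). After quantile normalization these groups overlap, with 12.21 on t4h replicate 3 and 12.28 on t0 replicate 3. Under the deposited scaling, the beta ring of codes 44-54 (12.04 to 12.41) lies below that of codes 12-22 (12.50 to 12.68).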

How the data were processed

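The authors deposited a signal intensity (linear scale) for each probe set and array, and the authors' software was MAS5 in GCOS, per the submitters' processing notes, with no version or settings given in the sources used here. Arrays were grouped by the time in their titles and by the range of the array code there. The number of arrays limits the precision. Probe sets were named from the platform annotation: of 45037 that are not controls, 34945 carry 1 symbol, 932 several and 9160 none, and only those with 1 were named. The probe set of Psme2 carries several, so that gene is not analysed here.

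The analysis used log2(signal + 16) without further scaling, so fold changes are on that scale and understate those of dim genes. Probe sets above their own array's median on at least 4 of 18 arrays were kept, 25804 in all. limma 3.58.1 in R 4.3.3 fitted 1 mean for each time to the 18 arrays together, or time and code range for the ranges, and p-values were adjusted by Benjamini-Hochberg over all kept probe sets at a threshold of 0.05, which "rose", "fell" and "passed" refer to. Other probe sets of a gene did not enter the counts. The fit was tested on simulated data. Named are the catalytic genes, the 4 genes that passed and moved most in each direction of a comparison (the 2 brightest where none passed), and likewise the partners. Of the partners, Pomp, Uchl5, Zfand2a and, for the lid, Sem1 are named besides. The remaining members are given as values to account for all. The members and lists were chosen with earlier results of these data known. Alternatives were quantile scaling, median centring, other filters and pseudocounts, all probe sets averaged, the code range as a block or alone, and leaving out each array.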

Additional observations from a re-analysis of the deposited data

Results flagged for a closer look

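In 2 of 87 groups of 6 arrays checked, over 29 genes, the lowest array stood apart from the rest by more than Dixon's test allows at its 95% level, which chance gives in about 1 of 20 groups. Psmc6 at 4 h had 5987 on replicate 3, with the next array at 7202 and the highest at 8000. Psme3 at 0 h had 488 on replicate 4, with the next array at 642 and the highest at 751. Both arrays are of the codes 44-54. The call of Psme3 at 4 h against 0 h remained with each array left out in turn (limma adjusted p from 0.00137 to 0.00403), and that of Psmc6 was lost in 2 of 18 such fits (adjusted p from 0.0125 to 0.0618).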

How the results depend on the processing

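Of 364 recomputed values over all alternatives, 317 stayed on their side of the threshold or, for counts and medians, within 1.5 times or 1 SD between arrays. No called value reversed, while the ratio of Psmb9 to Psmb6 at 1 h, which did not pass, changed sign with 5 of 12 arrays left out (-0.06 to 0.05). At 4 h against 0 h the 13 genes became 6 with quantile scaling, 21 with median centring, 7 with no filter, 3, 0 and 3 within codes 12-22, 32-37 and 44-54, and 8 to 14 with an array left out, the 8 without t0 replicate 4. At 4 h against 1 h the 14 became 8, 22, 7 and, within codes, 3, 0 and 0, and 9 to 15 with an array left out, the 9 without t1h replicate 1 or t4h replicate 5. The median change of the members was 0.38 and 0.49 with centring and 0.04 and 0.12 with quantile scaling, and at 4 h against 0 h 0.29, 0.09 and 0.10 within codes 44-54, 32-37 and 12-22 and 0.08 to 0.18 with an array left out, the 0.08 without t0 replicate 4. For codes 44-54 against 12-22 the 12 became 21 with centring, 5 with no filter and 6 to 13 with an array left out (6 without t0 replicate 4, and 7 without t0 replicate 5, t1h replicate 2, t1h replicate 5 or t4h replicate 5). For codes 32-37 against 12-22 the 8 became 3 with no filter and 5 to 7 with an array left out, the 5 without t0 replicate 3, t0 replicate 5 or t1h replicate 5. With no filter more probe sets were adjusted for, and within codes fewer arrays were fitted. The cause of the changes in these counts and medians was not tested.

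Leaving out an array, the ratio of Psmb9 to Psmb6 at 4 h was -0.62 to -0.45 and lost its call in 9 of 12 exact tests (adjusted p from 0.026 to 0.0909), and that of Psmb10 to Psmb7 was 0.57 to 0.72 and lost it in 6 of 12 (adjusted p from 0.0346 to 0.0779). That of Psmb8 to Psmb5 was -0.22 to -0.12 and passed without t4h replicate 3 (adjusted p = 0.0346). Stratified by code range, the first and second were -0.51 and 0.65 (adjusted p = 0.0556 each). With an array left out, the calls at 4 h against 0 h were lost in 5 of 18 fits for Psmb5, 7 for Psma3, 7 for Psmc5, 2 for Psmc6 and 3 for Psmd14, and in 0 for Psmd10, Psmd11, Psma6, Psme3, Psmb6, Psmd3, Psmd7 and Psmc2. At 4 h against 1 h they were lost in 11 for Psmb5, 8 for Psmc5 and 7 for Psma3. No paired analysis was possible because the replicate numbers follow accession order and pair no samples.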

Other observations

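Of the 98 probe sets of the constitutive genes 86 were tested, 42 of them besides the representatives, for 22 genes. At 4 h against 0 h 8 of the 42 rose and 5 fell, beside 9.93% and 23.1% of all probe sets. For 0 genes did another probe set pass in the direction opposite to a representative that passed. Psma6 and Psmd11 each had 3 further probe sets that rose, by 0.92, 1.31 and 0.99 and by 0.65, 0.59 and 0.61. For 5 of the 7 risen genes with further tested probe sets, Psma3, Psmc2, Psmc6, Psmd7 and Psme3, none of these passed. In 5 genes another probe set fell where the representative did not pass. For Psmd13 it had -1.81 (limma adjusted p = 1.41e-06) beside 0.11 for the representative, for Psmc3ip -0.89 beside -0.13, for Psmd9 -0.68 beside -0.12, for Psmf1 -0.42 beside -0.45 and for Psma1 -0.40 beside -0.29. In Psma5, 2 further probe sets rose, by 0.40 and 0.88, beside 0.19 for the representative. The representatives of Psma6, Psmb4 and Psmc2, and of Psmc3ip, Psmd11 and Psme4, are of probe set types that can share sequence with other transcripts.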
